A study of Mus musculus with 9 samples.

Results

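Expression of 8 genes used as markers of bone-forming cells was followed in mouse embryonic fibroblasts that differ in APE1: Spp1 (osteopontin), Ibsp, Alpl, Runx2, Sp7, Msx1, Msx2 and Dlx5. They are 8 of 24647 gene symbols on the arrays, picked by exact match of the symbol in the authors' deposited table. A symbol on more than 1 transcript cluster (the set of probes that an array reads as 1 transcript) was represented by the cluster with the highest mean over the 9 arrays. This applied to Alpl, whose clusters averaged 5.64 and 5.61 on the log2 scale, and to Runx2, whose clusters averaged 8.31 and 7.00.

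The arrays held 3 culture dishes each of human APE1, mouse Ape1 and vector control cells. The labels describe all 3 groups as male embryonic fibroblasts with the genotype mApe1-/- and hAPE1TG, isogenic to C56BL/6, in which Ape1 expression is extremely low. All dishes were harvested semi-confluent, while growing, in DMEM with serum. Nothing in the labels says that bone differentiation was induced. APE1 is a DNA repair endonuclease that can also change the redox state of transcription factors, and the study asked how its human and mouse forms influence gene expression. Each group is 1 cell line, so the introduced gene and the line that carries it cannot be told apart, and a p-value here covers the dish-to-dish spread within a line. The sources used here do not tell how the lines were made, and Apex1 is not analysed here, so the labels were not checked against it. Values are log2 expression values, and a difference of 1 is a doubling. The array medians lay between 5.64 and 5.75. Of 12 fibroblast markers, 1 (Lum) lay below the array median on all 9 arrays, as did 9 of 12 macrophage and osteoclast markers.

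Osteoblasts arise from mesenchymal cells under the control of Runx2, which is needed for bone formation, and Sp7 (osterix), which acts after it. The homeobox factors Msx1, Msx2 and Dlx5 pattern the skeleton of the head and limbs and act with BMP signals in bone precursors. Osteoblasts then lay down a collagen matrix with acidic phosphoproteins, among them osteopontin and bone sialoprotein (Ibsp), and their alkaline phosphatase (Alpl) breaks down pyrophosphate, an inhibitor of mineral growth. Osteopontin is made well beyond bone, by macrophages, epithelia and fibroblasts, and binds integrins and CD44.

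RefSeq start sites were matched for 6 of the 8 genes, without Sp7 and Dlx5. The 250 bases before the first listed start are shown for Spp1, for its chromosome 5 neighbour Ibsp, and for Alpl, because the first and the last of these carry the differences described below. Coordinates refer to GRCm38.p6. Spp1 lies on the forward strand at chr5:104434861-104435110, Ibsp on the forward strand at chr5:104299037-104299286, and Alpl on the reverse strand at chr4:137796385-137796634. Capitals mark matches to short motifs, searched on both strands, and each sequence runs 5′ to 3′ on the strand of its gene.
Spp1: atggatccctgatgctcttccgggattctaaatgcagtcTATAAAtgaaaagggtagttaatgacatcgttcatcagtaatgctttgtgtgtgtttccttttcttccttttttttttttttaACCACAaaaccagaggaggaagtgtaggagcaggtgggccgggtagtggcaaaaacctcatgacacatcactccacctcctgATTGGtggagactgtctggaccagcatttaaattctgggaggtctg
Ibsp: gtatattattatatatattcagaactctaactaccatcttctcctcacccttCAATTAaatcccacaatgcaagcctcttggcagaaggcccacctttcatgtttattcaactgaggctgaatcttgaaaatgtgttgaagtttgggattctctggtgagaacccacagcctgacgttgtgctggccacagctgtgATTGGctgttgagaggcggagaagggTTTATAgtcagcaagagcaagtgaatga
Alpl: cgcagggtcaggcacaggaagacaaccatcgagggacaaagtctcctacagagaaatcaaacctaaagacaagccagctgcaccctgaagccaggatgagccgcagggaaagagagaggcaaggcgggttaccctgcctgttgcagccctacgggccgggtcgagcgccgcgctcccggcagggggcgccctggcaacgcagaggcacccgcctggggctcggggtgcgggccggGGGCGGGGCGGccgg
In Spp1 the capitals are TATAAA 211 bases before the start, the RUNX motif TGTGGT read on the opposite strand 128 bases before it, and the CCAAT motif on the opposite strand 46 bases before it. In Ibsp they are the homeobox motif TAATTG at 198 bases, the CCAAT motif at 54 bases and TATAAA at 28 bases before the start, all on the opposite strand. In Alpl they are 2 GC boxes (GGGCGG) at 15 and 10 bases, which overlap by 1 base. Among 32851 promoter windows of this length, 14.0% held TGTGGT, 7.17% TAATTG, 32.7% GGGCGG, 12.4% TATAAA and 33.8% CCAAT. Over the 6 genes, with every listed start counted, RUNX motifs stood in the windows of 2 (Spp1 and Runx2), GC boxes in 3, TATAAA in 3, CCAAT in 4 and the homeobox motif in 1. The AP-1 motif TGANTCA, found in 6.75% of all windows, was in none of the windows of these 6 genes. A match is a string of letters and was not tested as a binding site.

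Spp1 was much lower in human APE1 cells than in both other lines. The human APE1 dishes read 7.60, 7.80 and 7.88, the mouse Ape1 dishes 9.92, 10.01 and 9.88, and the vector control dishes 10.17, 10.15 and 10.07. All 3 human APE1 values lay more than 1 log2 unit below the lowest value of either other group, and no group overlapped another. The means were 7.76 ± 0.14 in human APE1, 9.94 ± 0.068 in mouse Ape1 and 10.13 ± 0.053 in vector control (SD, n = 3 each). Spp1 fell by 2.37 in human APE1 against vector control (SE 0.082, 95% interval −2.56 to −2.18), which is 5.16-fold lower, with a limma adjusted p of 3.08e-06. Against mouse Ape1 the difference was −2.18 (95% interval −2.37 to −1.99), 4.52-fold lower in human APE1, with adjusted p = 5.24e-06. In these bulk samples, fewer cells that make the RNA and less RNA per cell cannot be told apart.

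Mouse Ape1 cells and vector control cells were close in Spp1. The difference was −0.19 (95% interval −0.38 to −0.0027), with an unadjusted p of 0.0475 and an adjusted p of 0.170, so it did not pass, although the 3 mouse Ape1 values all lay below the 3 vector control values. The comparisons against vector control share the same 3 vector control dishes. Ordered by difference, Spp1 stood 36th from the lowest of 24647 symbols for human APE1 minus vector control and 46th for human APE1 minus mouse Ape1. Spp1 was chosen with earlier results of these data known, so these ranks only describe its difference. On its own array Spp1 lay at percentiles 73.1 to 92.9 of the transcript clusters, so it was well above the array median in every dish, human APE1 included.

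In the authors' deposited table, which comes from another summary of the same arrays, the Spp1 means were 7.01 in human APE1, 8.88 in mouse Ape1 and 9.12 in vector control. The ratios in the authors' deposited table are 4.32 for vector control over human APE1 (unadjusted p = 7.95e-07), 1.18 for vector control over mouse Ape1 (p = 0.0566) and 0.273 for human APE1 over mouse Ape1 (p = 1.62e-06). Both summaries put human APE1 lowest by a wide margin. Spp1 and Alpl were the 2 of the 8 genes in the authors' shorter table of 7115 transcript clusters, with adjusted 3-group p-values of 0.000293 for Spp1 and 0.00211 for Alpl in the authors' deposited table.

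**Figure D1:**
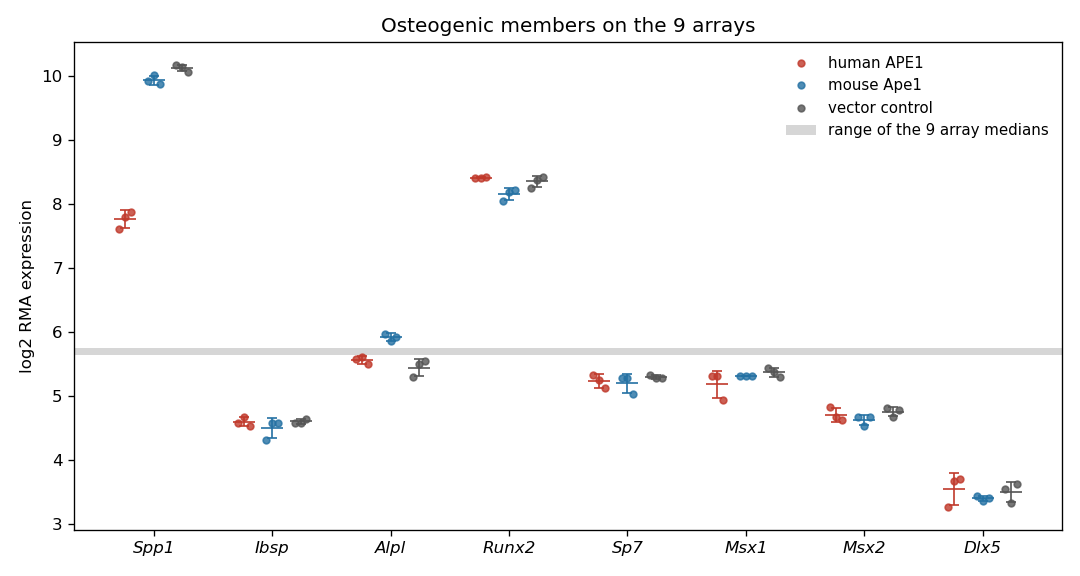
Log2 expression value of each of the 8 genes on each array (points), with each group's mean (horizontal mark) and SD (error bar) and the range of the 9 array medians (grey band), for human APE1, mouse Ape1 and vector control cells, 3 dishes each. Spp1 reads 7.60 to 7.88 in human APE1 dishes, against 9.88 to 10.17 in the other dishes, while the groups of Ibsp, Sp7, Msx1, Msx2 and Dlx5 overlap.

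Read over the 8 genes, the comparisons gave few calls. In human APE1 minus vector control 1 of 8 passed, the fall of Spp1, where 15.7% of the 24647 symbols changed, 6.58% rising and 9.13% falling (11.8% of all transcript clusters). In mouse Ape1 minus vector control 1 of 8 passed, a rise of Alpl, where 19.9% of symbols changed, 9.75% rising and 10.2% falling (16.2% of clusters). That call rests on a cluster that was the brighter of 2 through the mouse Ape1 dishes, as described below. In human APE1 minus mouse Ape1, Spp1 and Alpl fell and Runx2 rose, 3 of 8, where 16.6% of symbols changed, 7.17% rising and 9.39% falling (12.4% of clusters). A count of 1 of 8 is near these background shares, and the count of 3 falls to 1 without human APE1 replicate 1, human APE1 replicate 3, mouse Ape1 replicate 1 or mouse Ape1 replicate 3. The median differences of the 8 genes were −0.03, −0.10 and 0.06 in that order of comparisons, beside 0.0016, −0.03 and 0.03 over all symbols. Spp1 alone differed by more than 1 log2 unit in any comparison. At an unadjusted limma p under 0.05, 7002, 7799 and 7069 of the 24647 symbols passed, in the same order of comparisons. Counts at that cutoff below stand beside these numbers.

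**Figure D2:**
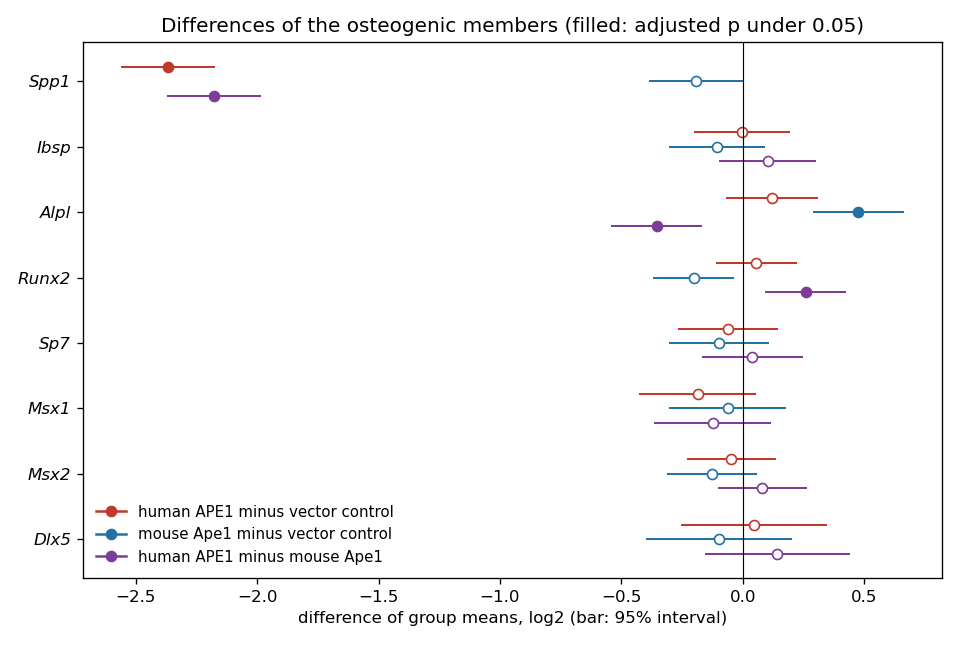
Difference in log2 expression (points) with its 95% interval (bars) for each of the 8 genes in each comparison, filled where the adjusted p is under 0.05. Spp1 stands at −2.37 for human APE1 minus vector control and −2.18 for human APE1 minus mouse Ape1, and every other difference lies between −0.36 and 0.48.

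Ibsp encodes bone sialoprotein, an acidic phosphoprotein of the same small integrin-binding family as osteopontin and a marker of mature osteoblasts. It read 4.58, 4.68 and 4.53 in human APE1, 4.32, 4.58 and 4.58 in mouse Ape1, and 4.58, 4.58 and 4.64 in vector control. The groups overlapped, and the differences were −0.0035 for human APE1 minus vector control (95% interval −0.20 to 0.19, adjusted p = 0.989), −0.11 for mouse Ape1 minus vector control (adjusted p = 0.477) and 0.10 for human APE1 minus mouse Ape1 (adjusted p = 0.542). Ibsp lay below the array median in every dish, at percentiles 24.7 to 30.3, and 4 arrays gave it exactly the same value, 4.57994. RMA, the method behind these values, compresses differences of dim transcripts, so a change of Ibsp RNA at this level could go unseen.

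The genes of this phosphoprotein family stand in a row on mouse chromosome 5, so the neighbourhood of Spp1 was read as well. In the order of the RefSeq annotation Dspp, Dmp1, Ibsp and Mepe come before Spp1 and Pkd2 follows it. Of the 8 protein-coding genes before Spp1 and the 4 after it, 10 were found on the arrays. In human APE1 minus vector control, limma called 0 of these 10 (2 had an unadjusted p under 0.05, 1 in each direction). Over all symbols 15.7% changed in that comparison, so 0 of 10 is near that share. Gm17660, Sparcl1, Dspp, Dmp1, Ibsp and Zfp33b averaged 2.96 to 4.56, below the array medians, where RMA compresses differences. Mepe, the nearest gene before Spp1 and a regulator of mineralization, averaged 5.60 in human APE1, 5.55 in mouse Ape1 and 5.67 in vector control. Pkd2, which encodes the polycystin-2 ion channel, averaged 10.43, 10.71 and 10.36 in the same order of groups. Pkd2 rose by 0.35 in mouse Ape1 against vector control (adjusted p = 0.0048) and differed by −0.27 for human APE1 minus mouse Ape1 (adjusted p = 0.016), while Nudt9, a nucleotide hydrolase gene farther away, fell by 0.28 in mouse Ape1 (adjusted p = 0.037).

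**Figure D3:**
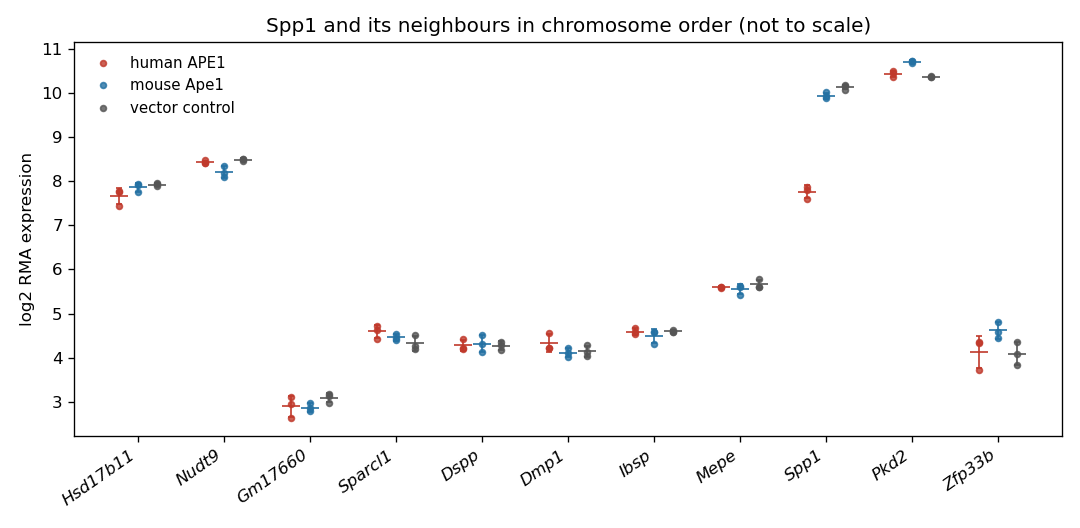
Log2 expression (points for dishes, marks for group means, error bars for SD, n = 3) of Spp1 and of the 10 measured protein-coding genes around it on chromosome 5, in annotation order and not to scale, for human APE1, mouse Ape1 and vector control. Spp1 has a mean of 7.76 in human APE1, 9.94 in mouse Ape1 and 10.13 in vector control, and none of the 10 neighbours passed for human APE1 minus vector control. Over all symbols 15.7% changed in that comparison.

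Alpl encodes the tissue-nonspecific alkaline phosphatase, and it moved in another line than Spp1 did. The human APE1 dishes read 5.58, 5.61 and 5.49, the mouse Ape1 dishes 5.97, 5.85 and 5.93, and the vector control dishes 5.29, 5.49 and 5.54. The mouse Ape1 values lay above all others, and human APE1 and vector control overlapped. Alpl rose by 0.48 in mouse Ape1 against vector control (SE 0.080, 95% interval 0.29 to 0.66, 1.39-fold, adjusted p = 0.00518). The difference for human APE1 minus mouse Ape1 was −0.36 (95% interval −0.54 to −0.17, adjusted p = 0.0225), and that for human APE1 minus vector control was 0.12 (95% interval −0.06 to 0.30, adjusted p = 0.421). The call of human APE1 against mouse Ape1 was lost without human APE1 replicate 1 (adjusted p = 0.0606), human APE1 replicate 3 (0.0695), mouse Ape1 replicate 1 (0.0818) or mouse Ape1 replicate 3 (0.0730).

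The other transcript cluster of Alpl did not show the rise. It read 5.64, 5.38 and 5.63 in human APE1, 5.60, 5.64 and 5.59 in mouse Ape1, and 5.72, 5.60 and 5.70 in vector control. Its differences were −0.12, −0.06 and −0.06 in the 3 comparisons (adjusted p = 0.413, 0.679 and 0.727), so the 2 clusters disagree and the rise rests on 1 of them. The choice of the brighter cluster also leaned on the dishes that show the rise. The chosen cluster averaged 5.92 in mouse Ape1 against 5.61 for the other, but 5.44 in vector control against 5.67. In human APE1 the 2 clusters averaged 5.56 and 5.55. The p-value of the rise does not allow for that choice. In the authors' deposited table, Alpl averaged 5.70 in human APE1, 6.29 in mouse Ape1 and 5.52 in vector control. Its ratio of vector control over mouse Ape1 in the authors' deposited table is 0.586 (unadjusted p = 2.66e-05). The other alkaline phosphatase genes, Alpi, Akp3 and Alppl2, passed in no comparison in the main limma fit. In human APE1 against vector control, 1 of them rose without vector control replicate 1, and 1 from the p-values of the authors' deposited table. From those deposited p-values 1 also rose for human APE1 minus mouse Ape1. Of the 4 genes with Alpl, 2 had an unadjusted p under 0.05 for human APE1 minus vector control, 2 for mouse Ape1 minus vector control and 1 for human APE1 minus mouse Ape1.

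Runx2, the transcription factor on which osteoblast formation depends, was well above the array median and nearly level by its brighter cluster. The human APE1 dishes read 8.40, 8.41 and 8.42, the mouse Ape1 dishes 8.05, 8.18 and 8.23, and the vector control dishes 8.26, 8.38 and 8.43. The mouse Ape1 values were the lowest and overlapped with no other group. The difference for human APE1 minus vector control was 0.06 (95% interval −0.11 to 0.22, adjusted p = 0.702). That for mouse Ape1 minus vector control was −0.20, with an unadjusted p of 0.0204 and an adjusted p of 0.0960, which did not pass. Runx2 was 0.26 higher in human APE1 than in mouse Ape1 (95% interval 0.10 to 0.42, adjusted p = 0.0498), at the edge of the threshold of 0.05. Leaving out any 1 dish other than vector control replicate 1 ended that call, with adjusted p up to 0.150, and the adjusted p ranged from 0.0182 to 0.852 over 18 alternatives, 4 of which passed. The other Runx2 cluster gave 0.03 for human APE1 minus mouse Ape1 (adjusted p = 0.852). Against vector control it gave −0.15 for human APE1 (adjusted p = 0.240) and −0.18 for mouse Ape1 (adjusted p = 0.130), neither of which passed. All its human APE1 and mouse Ape1 values lay below its vector control values. For human APE1 minus vector control the 2 clusters thus differ in sign.

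The relatives of Runx2 did not follow it. Runx1, a factor of blood cell development, averaged 8.96 ± 0.087 in human APE1, 9.67 ± 0.012 in mouse Ape1 and 9.03 ± 0.092 in vector control (SD, n = 3 each). It rose by 0.63 in mouse Ape1 against vector control (adjusted p = 0.000732) and was −0.70 for human APE1 minus mouse Ape1 (adjusted p = 0.000452). Cbfb, the partner that all Runx factors bind, rose by 0.33 in mouse Ape1 (adjusted p = 0.0046), and Runx3 rose by 0.35 (adjusted p = 0.0163), a call lost without mouse Ape1 replicate 3, vector control replicate 2 or vector control replicate 3. The Runx3 call also failed after both other normalizations and from the p-values of the authors' deposited table, and passed in 11 of 17 alternatives. In human APE1 minus vector control limma called none of these 4 genes, and none had an unadjusted p under 0.05.

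Sp7, Msx1, Msx2 and Dlx5 passed in no comparison. Sp7 read 5.12 to 5.33 in human APE1, 5.03 to 5.28 in mouse Ape1 and 5.28 to 5.33 in vector control. Msx1 read 4.93 to 5.30 in human APE1, 5.30 in all 3 mouse Ape1 dishes and 5.30 to 5.43 in vector control. These values overlap in every pair of groups. Msx2 read 4.61 to 4.83 in human APE1, 4.53 to 4.67 in mouse Ape1 and 4.67 to 4.81 in vector control, and Dlx5 read 3.25 to 3.69, 3.36 to 3.44 and 3.32 to 3.62 in the same order. Over these 4 genes the differences ran from −0.19 to 0.05 for human APE1 minus vector control, from −0.13 to −0.06 for mouse Ape1 minus vector control and from −0.12 to 0.14 for human APE1 minus mouse Ape1, and by limma 0 of 4 passed in any of them, at an unadjusted p under 0.05 also 0. Their 95% intervals together spanned −0.42 to 0.44.

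All 4 of these factors and Ibsp lay below the array median on all 9 arrays, and Dlx5 below the 25th percentile on all 9. Several gave the very same value on more than 1 array, 5.30431 on 5 arrays for Msx1, 4.67132 on 4 for Msx2 and 5.27564 on 3 for Sp7. A change of RNA at such levels would be compressed by RMA, so its absence cannot be read from these values. In their families, limma called 0 of 3 Msx genes (1 at an unadjusted p under 0.05 for human APE1 minus mouse Ape1) and 0 of 5 measured Dlx genes (3 at an unadjusted p under 0.05 for mouse Ape1 minus vector control). Among 8 Sp genes, 2 rose and 1 fell in human APE1 against vector control, and 2 rose and 0 fell in mouse Ape1 against vector control. Over all symbols, 6.58% rose and 9.13% fell in the first of these comparisons, and 9.75% rose and 10.2% fell in the second. Sp4, a zinc finger factor best known from the nervous system, fell by 0.42 in human APE1 (adjusted p = 0.00535, but 0.132 from the p-values of the authors' deposited table) and rose by 0.51 in mouse Ape1 (adjusted p = 0.00162), each against vector control. Sp1, a factor that binds GC boxes, rose by 0.31 in human APE1 (adjusted p = 0.00984, but 0.0620 from the p-values of the authors' deposited table) and by 0.24 in mouse Ape1 (adjusted p = 0.0203, a call lost without replicate 1 or 3 of mouse Ape1 or of vector control). The Sp1 call in mouse Ape1 also failed from the p-values of the authors' deposited table, and passed in 9 of 17 alternatives. Sp3, a relative of Sp1, rose by 0.32 in human APE1 (adjusted p = 0.0304), which did not pass when any 1 dish other than human APE1 replicate 2 or vector control replicate 2 was left out.

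The wider bone matrix list held 13 measured genes, 3 of which fell and 0 rose in human APE1 against vector control. Over all symbols, 9.13% fell and 6.58% rose in that comparison. In mouse Ape1 against vector control 10.2% of symbols fell and 9.75% rose, and for human APE1 minus mouse Ape1 9.39% fell and 7.17% rose. Counts in this list and in those below stand beside these shares. Col1a1, a chain of type I collagen, averaged 11.15 in human APE1, 11.77 in mouse Ape1 and 12.09 in vector control, and fell by 0.94 in human APE1 (adjusted p = 8.29e-05). Col1a2, the other chain, averaged 9.93, 11.13 and 10.60 in the same order and fell by 0.68 in human APE1 (adjusted p = 0.000364). Bgn, which encodes the proteoglycan biglycan, fell by 0.46 (adjusted p = 0.000703). These genes are matrix genes of fibroblasts as well as of bone. In mouse Ape1 against vector control 3 rose and 2 fell, a count of rises that drops to 1 with array medians subtracted. Ogn, a small proteoglycan gene, fell by 1.19 in mouse Ape1 (adjusted p = 0.000951). Bglap (osteocalcin), the matrix protein most tied to osteoblasts, passed in no comparison, with means of 5.39, 5.52 and 5.57.

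Of 12 genes that handle phosphate, pyrophosphate and mineral, 3 fell and 0 rose in human APE1 against vector control. At an unadjusted p under 0.05 there were 7, beside 7002 of the 24647 symbols. Without vector control replicate 3 the rises numbered 1. Enpp1, which makes pyrophosphate outside the cell, averaged 5.71 ± 0.15 in human APE1, 5.58 ± 0.22 in mouse Ape1 and 6.77 ± 0.17 in vector control (SD, n = 3 each), and fell by 1.06 in human APE1 (adjusted p = 0.00199) and by 1.19 in mouse Ape1 (adjusted p = 0.000875). Ank, which carries pyrophosphate out of cells, fell by 0.89 in human APE1 (adjusted p = 0.000211), and the phosphate importer gene Slc20a1 fell by 0.65 (adjusted p = 0.000735). In mouse Ape1 against vector control 2 rose and 1 fell.

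Receptors of osteopontin numbered 10 on the arrays. In human APE1 against vector control 2 fell: Itgb3, whose product pairs with the alpha v subunit, by 0.77 (adjusted p = 0.00198), and Itgb1, a subunit shared by many integrins, by 0.42 (adjusted p = 0.00344). The third call, a rise of Cd44 by 0.25 (adjusted p = 0.0495), was lost when any 1 of the 9 dishes was left out. In mouse Ape1 against vector control Itgb3 fell by 0.92 (adjusted p = 0.000634), Itgb5 fell by 0.53 (adjusted p = 0.0015) and Itgav rose by 0.44 (adjusted p = 0.00125). Itgav has 1 other transcript cluster, whose difference had the opposite sign for human APE1 minus mouse Ape1. For human APE1 minus mouse Ape1, 1 rose and 2 fell, and neither fall held without mouse Ape1 replicate 1.

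Regulators of osteoblast formation, 24 genes, split in both directions. In human APE1 against vector control 5 fell and 1 rose. At an unadjusted p under 0.05 there were 10, beside 7002 of the 24647 symbols. Without vector control replicate 2 the falls numbered 3. The 1 rise, that of Yap1, was lost when any 1 dish other than vector control replicate 2 was left out. The largest fall was that of Lef1, a nuclear effector of Wnt signals, which averaged 6.86 ± 0.15 in human APE1, 7.60 ± 0.067 in mouse Ape1 and 8.25 ± 0.058 in vector control (SD, n = 3 each) and fell by 1.39 (adjusted p = 5.08e-05). Zfp521, a zinc finger repressor gene, fell by 0.94 (adjusted p = 0.0208), a call lost without vector control replicate 1 or 2. Tcf7, a relative of Lef1, fell by 0.55 (adjusted p = 0.00162), and Twist2, whose product holds Runx2 in check, fell by 0.65 (adjusted p = 0.00237). In mouse Ape1 against vector control 5 fell and 4 rose, led by Id2, an inhibitor of helix-loop-helix factors, which fell by 1.78 (adjusted p = 1.05e-05), with Twist2 at −1.32 (adjusted p = 5.03e-05) and Tcf7 at −1.25 (adjusted p = 2.14e-05). The median differences of the 24 genes were −0.09 for human APE1 minus vector control and −0.14 for mouse Ape1 minus vector control.

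**Figure D4:**
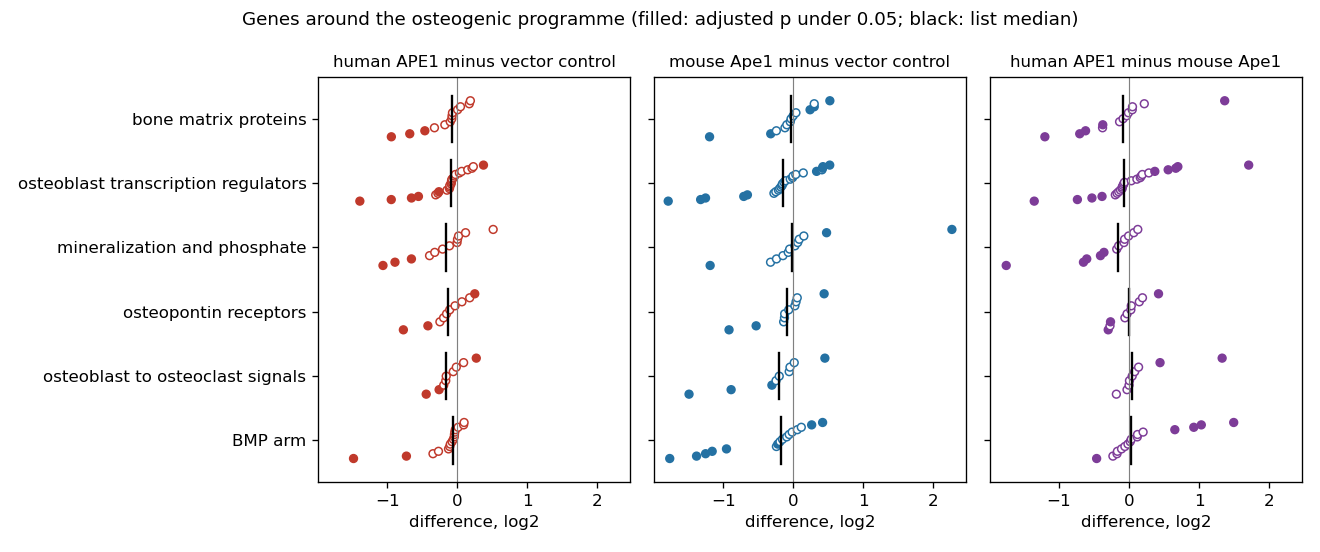
Difference in log2 expression of each measured gene (points) in 6 lists of genes around the 8 markers, by comparison, filled where the adjusted p is under 0.05, with the list median as a black line. In the bone matrix list 3 of 13 genes fell in human APE1 against vector control, and in the mineralization list 3 of 12 fell. Over all symbols 9.13% fell in that comparison.

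Markers of other cell types were read beside Spp1. Of 12 macrophage and osteoclast genes, other known sources of osteopontin, only Cd14 passed, falling by 0.66 in human APE1 (adjusted p = 0.0105, but 0.0713 from the p-values of the authors' deposited table) and by 0.94 in mouse Ape1 against vector control. Their summed linear level was 625 to 651 in human APE1, 590 to 616 in mouse Ape1 and 664 to 724 in vector control. Ptprc, the common leukocyte antigen gene, averaged 3.47, 3.40 and 3.57 in that order, below the 25th percentile of every array. Of 12 cartilage genes 1 fell in human APE1 (Sox9 by 0.46, adjusted p = 0.0147, a call lost without human APE1 replicate 1 or 2), of 10 adipocyte genes 2 fell (Lpl by 0.76, adjusted p = 0.00122, and Pparg by 0.40, adjusted p = 0.0405, which did not pass when any 1 dish of human APE1 or vector control, or mouse Ape1 replicate 1, was left out), and of 9 epithelial genes limma called 0, with 0 at an unadjusted p under 0.05. The Sox9 and Pparg calls also failed from the p-values of the authors' deposited table. Of 12 fibroblast markers, 7 fell and 0 rose in human APE1 against vector control, and 8 fell and 2 rose in mouse Ape1 against vector control. Over all symbols, 9.13% fell and 6.58% rose in the first of these comparisons, and 10.2% fell and 9.75% rose in the second. Dcn, which encodes the matrix proteoglycan decorin, averaged 5.81 ± 0.20 in human APE1, 5.59 ± 0.24 in mouse Ape1 and 8.87 ± 0.030 in vector control (SD, n = 3 each), and fell by 3.06 in human APE1 (adjusted p = 8.73e-06) and fell by 3.29 in mouse Ape1 (adjusted p = 5.22e-06). The summed linear level of the 12 fibroblast genes was 21569 to 22366 in human APE1, 23175 to 24318 in mouse Ape1 and 24721 to 25437 in vector control, and its part in the fall of Spp1 was not tested.

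The genes whose profile over the 9 arrays was most like that of Spp1 were sought among 807 symbols whose group means range over at least 1 log2 unit. By Pearson r, a description over 9 arrays in 3 groups, they were Cdyl2 (r = 0.996), Gria3 (r = 0.996) and Wnk3-ps (r = 0.995). Cdyl2, a chromodomain gene, averaged 6.64 in human APE1, 7.72 in mouse Ape1 and 7.83 in vector control. Gria3, a glutamate receptor gene, averaged 4.95, 7.52 and 7.94 in that order, and Wnk3-ps 6.06, 7.15 and 7.25. Each was lowest in human APE1, which follows from the choice by likeness to Spp1. Gria3 also differed between the other lines, by −0.43 for mouse Ape1 minus vector control (adjusted p = 0.00221). The 9 arrays form 3 groups of like dishes, so these values rest on few independent points.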

How the data were processed

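Per the labels' protocols, Affymetrix arrays were hybridised with total RNA of 9 dishes, 3 per group. The deposited array values are, per the labels, log2 RMA values of a core-exon analysis made in Expression Console. RMA gives arrays a common distribution and makes the differences of dim transcripts smaller. The authors also deposited group means, linear ratios between groups and unadjusted p-values, per the file headers, and the submitters' processing notes name Partek with no version. Array design and genome build were not given in the sources used here. Arrays carry no read depth, and their number limits the precision.

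Symbols came from the deposited table, with 26 that a spreadsheet had altered restored from the annotation. Bgn, Col1a2, Itgav and Lpl also had 1 other transcript cluster each, and the brightest was used. All 41345 transcript clusters, 27037 of them with a symbol, were fitted unfiltered in R 4.3.3 with limma 3.58.1 (lmFit, eBayes, two-sided) as 3 group means, with 6 residual and 2.07 prior degrees of freedom. P-values were adjusted by Benjamini-Hochberg over all clusters in each comparison, and under 0.05 is called a rise or fall. The fit was tested on simulated data. List genes named are up to 4 per list and comparison with the largest difference that passed, and genes of small families. Yap1, Bglap, Ptprc, Lum, Pkd2 and Nudt9 were named after their values were seen. The genes and lists were chosen with earlier results of these data known. Deviations from the group means correlated at −0.07 to 0.10 between same-numbered dishes of different groups. These values gave no sign that replicate numbers pair the dishes, though 3 dishes per group cannot exclude it. Promoters are from RefSeq, GRCm38.p6. Tables and figures used matplotlib 3.10.9, scipy 1.17.1, pandas 2.3.3 and numpy 2.4.6 under Python 3.11.15. Alternatives were other normalizations, variance models, filters, groups fitted, a replicate block, each array left out, the authors' deposited table and other clusters.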

Additional observations from a re-analysis of the deposited data

How the results depend on the processing

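The fall of Spp1 in human APE1 passed in all 17 alternatives, at −2.43 to −2.11 against vector control (adjusted p 5.17e-07 to 0.000314) and −2.23 to −1.87 against mouse Ape1. Its difference in mouse Ape1 against vector control passed in none of 17 (adjusted p 0.0889 to 0.361). With the other cluster the Alpl difference in mouse Ape1 turned to −0.063 (adjusted p = 0.679), and that of Itgav for human APE1 minus mouse Ape1 to 0.14. With the other clusters of Alpl and Runx2, 0 of the 8 genes passed for mouse Ape1 minus vector control and 1 for human APE1 minus mouse Ape1. With the replicate block, which the dishes' correlations do not back, 1 passed for human APE1 minus mouse Ape1 (3 without it), Alpl being at adjusted p = 0.0639, and it changed no other of these counts. Leaving out 1 array, that count ran from 1 to 3, and the clusters that passed ran from 3185 to 4776 for human APE1 minus vector control and from 4433 to 6772 for mouse Ape1 minus vector control. With dim clusters left out, Runx2 passed in mouse Ape1 against vector control (adjusted p = 0.0413). Over all alternatives of the 8 genes, 374 of the values kept their side of the threshold (some that did not pass changed sign near 0), 20 lost their call, 1 gained one and 1 turned from a call to the other sign. Ibsp, Sp7, Msx1, Msx2 and Dlx5 passed under no alternative, so part of the 374 comes from genes with no call to lose. The lost, gained and turned calls were all of Alpl or Runx2. For the 5 genes below the array median on all arrays, low signal limits what could be detected. Alpl lay close to the array median, at percentiles 43.3 to 53.6, and was itself removed when dim clusters were left out.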

Other observations

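Of 9 genes for osteoblast signals to osteoclasts and for hormone receptors, 3 fell and 1 rose in mouse Ape1 against vector control. Over all symbols, 10.2% fell and 9.75% rose in that comparison, and 9.13% fell and 6.58% rose in human APE1 against vector control. Vdr, the vitamin D receptor gene, averaged 6.99 ± 0.13 in human APE1, 5.66 ± 0.096 in mouse Ape1 and 7.14 ± 0.18 in vector control (SD, n = 3 each), and fell by 1.49 in mouse Ape1 against vector control (limma adjusted p = 8.88e-05). Esr1, an estrogen receptor gene, fell by 0.89 in mouse Ape1 (adjusted p = 0.000137) and by 0.44 in human APE1 (adjusted p = 0.00553, but 0.0925 from the p-values of the authors' deposited table). Of 16 BMP genes, 6 fell in mouse Ape1 against vector control and 2 rose, while in human APE1 2 fell and 0 rose. The count of rises dropped to 0 without mouse Ape1 replicate 3 or vector control replicate 1, and to 1 without mouse Ape1 replicate 1 or 2 or vector control replicate 2 or 3. In mouse Ape1 the ligand gene Bmp4 fell by 1.16 (adjusted p = 2.14e-05), the receptor gene Bmpr1b by 1.25 (adjusted p = 0.0043), the signal carrier Smad9 by 1.76 (adjusted p = 2.14e-05) and the inhibitor Smad6 by 1.38 (adjusted p = 2.47e-05). Of these, Bmpr1b and Smad6 also fell in human APE1 against vector control, with differences of −1.48 (adjusted p = 0.00266) and −0.73 (adjusted p = 0.000807).

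Phex, a membrane peptidase gene of osteoblasts and osteocytes that takes part in phosphate balance, averaged 5.55 ± 0.066 in human APE1, 7.31 ± 0.074 in mouse Ape1 and 5.04 ± 0.36 in vector control (SD, n = 3 each). It rose by 2.27 in mouse Ape1 against vector control (adjusted p = 6.95e-05). Among 6 osteocyte markers Pdpn rose as well, by 0.35 (adjusted p = 0.0039, but 0.0587 from the p-values of the authors' deposited table), while Dmp1 and Mepe passed in no comparison.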
